A study of Bos indicus with 8 samples.

Results

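Translation initiation factors are the proteins that bring the small ribosomal subunit, the initiator methionyl-tRNA and the messenger RNA together and then release the large subunit to join them. Their transcripts were compared between blastocysts that had been vitrified and warmed and blastocysts that had not. The members were all array probes whose symbol in the platform annotation begins with EIF1, EIF2, EIF3, EIF4, EIF5 or EIF6, with 3 probes of 3 symbols (EIF2AK3, EIF1AY and EIF2S3) left out by the rule. This gave 48 of the 15229 gene symbols on the array, with 73 of its 43794 gene probes. Of the 73 probes, 70 were bright enough to be tested, which left 47 symbols. The rule uses symbols alone, and measured brightness decided only which of the probes were tested. The rule itself was set with earlier results of these data known. By family, 5 probes belonged to eIF1 and its relatives, 4 to eIF2, 9 to eIF2B, 3 to the eIF2 kinases, 18 to eIF3, 18 to eIF4F and its partners, 4 to the eIF4E binding proteins, 4 to eIF5 and eIF5B, 3 to eIF5A, 2 to eIF6 and 3 to Argonaute genes, which the annotation lists under their old EIF2C symbols.

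Both groups were Bos indicus (zebu cattle) blastocysts made in vitro from slaughterhouse ovaries and the frozen semen of a Bos indicus bull, graded as best quality between 144 and 156 h after insemination and divided equally between the groups. The vitrified embryos were equilibrated in ethylene glycol and dimethylsulfoxide at 7.5% each, moved to 15% of each with 0.5 M sucrose, loaded on a Cryotop (a thin plastic strip that holds embryos in a minimal volume) and kept in liquid nitrogen for at least 30 min before warming through 1 M and then 0.5 M sucrose. The control embryos stayed in holding medium on the bench meanwhile, so both groups shared their origin and later culture but not the cryoprotectants or the cooling. Both groups were then cultured for 4 h, and from both groups the embryos that looked normal were kept, so embryos that did not survive the treatment are not represented.

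Each sample was a pool of 10 embryos whose RNA went through repeated amplification with T7 polymerase before dye labelling, and each of 8 two-colour arrays on 2 slides carried a vitrified and a control pool. On areas 1 and 3 of a slide the vitrified pool was in Cy5 (red), and on areas 2 and 4 it was in Cy3 (green). Values are log2 ratios of vitrified over control, so that a value above 0 is a higher level in vitrified embryos. Neighbouring areas of opposite dye were averaged into 4 dye-swap pairs, which served as replicates (n = 4). Pairs 1 and 2 are areas 1 and 2 and areas 3 and 4 of the first slide, and pairs 3 and 4 are the same areas of the second slide. The labels do not say that the pools came from separate culture runs, so p-values measure the spread between these pools alone. In pooled whole embryos, fewer cells of a type and less RNA per cell cannot be told apart.

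The arrays were labelled as blastocysts, and 5 of 5 trophectoderm marker genes and 3 of 3 inner cell mass marker genes were above background in the control channel of at least 7 arrays, as were 1 of 5 cumulus cell marker genes and 2 of 4 oocyte marker genes (ZP3 and BMP15). Most probes of most arrays passed this limit. In mean log2 intensity CDX2 (7.43), SOX2 (7.34) and GATA3 (7.68) were as dim as ZP3 (7.44) and BMP15 (7.69). Passing the limit therefore says little about cell type for such probes. Between the groups, all 7 probes of the 5 trophectoderm genes lay above 0, from 0.0056 to 0.56, beside 51.6% of all tested probes. The 3 inner cell mass probes lay between -0.48 (NANOG) and 0.08 (POU5F1). At an unadjusted limma p under 0.05, 2 trophectoderm probes were higher and 1 inner cell mass probe (NANOG) was lower. Of all tested probes, 3.16% were higher and 3.91% lower at that limit. The tested cumulus cell probes lay between -0.04 and 0.08 and the tested oocyte probes between -0.04 and 0.10. None of these was called at a limma adjusted p under 0.05, and their part in the values below was not tested. The median Cy5 intensity of an array lay between 106.5 and 153.2, and the median Cy3 intensity between 149.1 and 243.3. Area 1 of the second slide, which belongs to pair 3, had 28.0% of its probes above background, whereas the share was 72.3% to 79.2% for each of the other 7 arrays.

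As background, initiation starts when eIF2 carries the initiator tRNA to the small subunit with the help of eIF1, eIF1A, eIF3 and eIF5, while the eIF4F complex recognises the cap of the messenger RNA and unwinds its leader. Cells slow protein synthesis under stress chiefly through kinases that phosphorylate eIF2 and thereby block its exchange factor eIF2B, and through eIF4E binding proteins that keep the cap-binding protein away from its scaffold. These controls act largely on proteins that are already made, which transcript levels do not measure.

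None of the 70 tested members was called different between vitrified and control embryos at a limma adjusted p under 0.05 (Benjamini-Hochberg over 34912 probes, 0% of which were called). The smallest adjusted p among the members was 0.503 and the largest 0.999. At an unadjusted limma p under 0.05, 9 of 70 members (12.9%) were found, against 7.07% of all tested probes. Of the 9, 3 were higher in vitrified embryos (EIF5A, EIF5 and EIF1AD) and 6 were lower (EIF3M, EIF4ENIF1, EIF2B3, EIF6, EIF4E2 and EIF3L). The background in each direction was 3.16% higher and 3.91% lower.

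The members were also brighter than most probes. Their median log2 intensity was 10.23 and that of all tested probes 7.62, and dim probes have ratios drawn towards 0 by the added offset. In classes of intensity chosen after the values were seen, 0% of the 19 members under a log2 intensity of 8 had an unadjusted limma p under 0.05, against 2.9% of all such probes. Between 8 and 11 it was 13.6% of 22 members against 12.6% of all, and from 11 upwards 20.7% of 29 members against 16.1% of all. Within a class the members' share was closer to the background than the pooled shares are. From 8 upwards the members' shares rest on only 3 and 6 probes, and their distance from the background was not tested. Whether brightness bears on the pooled difference was not tested.

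The ratios were small throughout. The 70 members had a median log2 ratio of -0.02, with 30 above 0 (42.9%) and 40 below, while all tested probes had a median of 0.0023 with 51.6% above 0. The lowest member was EIF4E2 at -0.28 and the highest EIF5 at 0.44. The 95% confidence interval lay inside a 1.5-fold change in either direction (0.585 on the log2 scale) for 64 of the 70 members, and for 47 of the 51 members with a log2 intensity of 8 or more. The other 6 were probes of EIF1AD, EIF2AK2, EIF3C, EIF3F, EIF4E3 and EIF5, and the further tested probes of EIF3C, EIF3F and EIF5 had intervals inside it.

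**Figure D1:**
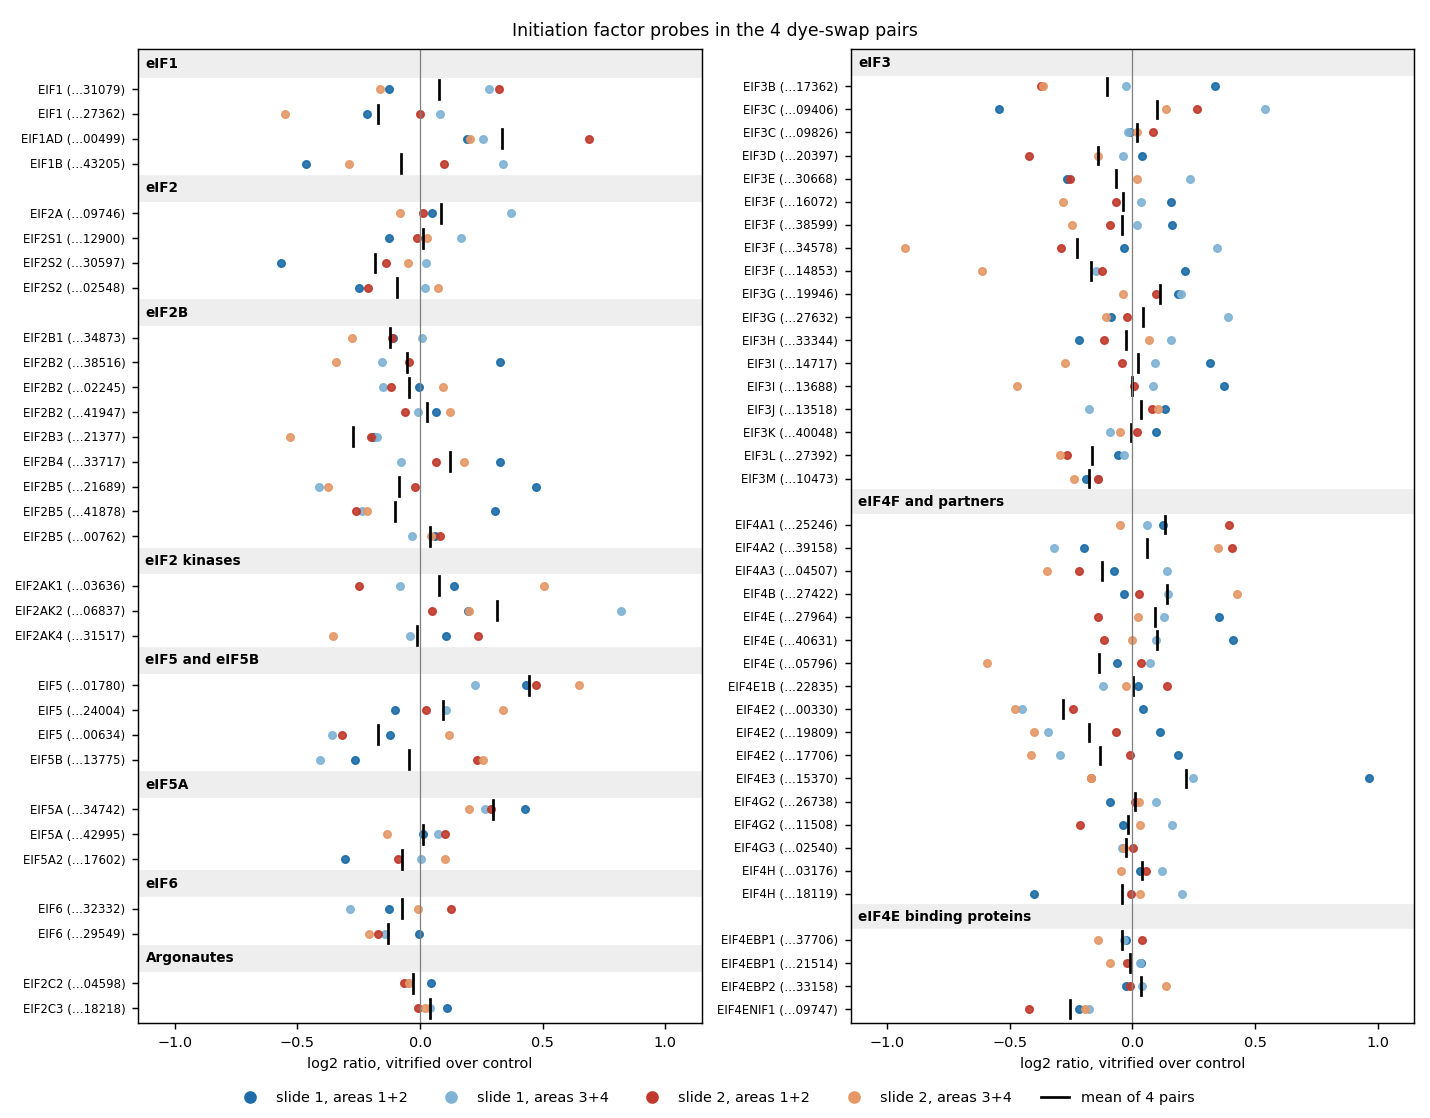
Log2 ratio of vitrified over control (horizontal axis) in each of the 4 dye-swap pairs for the tested member probes, grouped by factor family down the vertical axis. The points of most probes fall on both sides of 0, and 9 of the 70 probes have all 4 pairs on one side.

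In 9 of 70 members (12.9%) all 4 pairs had the same sign, against 13.6% of all tested probes. The 4 with all pairs above 0 (6.97% of all tested probes) were EIF5, EIF5A, EIF1AD and EIF2AK2. The 5 with all pairs below 0 (6.64% of all tested probes) were EIF2B3, EIF3M, EIF3L, EIF4ENIF1 and a probe of EIF6. All 8 arrays had the same sign for 2 members, EIF5A and EIF2B3, which is 2.86% against 2.87% of all tested probes. These shares were near the background of the array.

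Among the factors that act at the start codon, EIF1 safeguards the choice of the codon during scanning. Its brighter probe had pair values of -0.13, 0.28, 0.32 and -0.16, a mean of 0.08 ± 0.26 (SD, n = 4), with the pairs on both sides of 0. Its other probe had -0.17 ± 0.28. EIF1B, the close relative of EIF1, was at -0.08 ± 0.37. EIF1AX, which encodes the partner of eIF1 on the small subunit, had no probe with that symbol.

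EIF1AD encodes a protein with an eIF1A domain. Its brighter probe (EMBV3_00499) read 0.19, 0.20, 0.26 and 0.26 on the first slide, in the order of areas 1 to 4, and 0.53, 0.85, -0.01 and 0.42 on the second. They were above 0 on 7 of 8 arrays, and pair 3 at 0.69 stood well above the other pairs at 0.19 to 0.26. The mean was 0.34 ± 0.24, a 1.26-fold higher level with a 95% confidence interval of 1.05 to 1.51, and limma's p was 0.022 (adjusted 0.611). Without pair 3 the log2 ratio was 0.22. A further EIF1AD probe was too dim to be tested.

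EIF5 makes eIF2 hydrolyse its GTP once the start codon is found. Its brightest probe (EMBV3_01780) read 0.71, 0.15, 0.49 and -0.04 on the first slide, and on the second slide 0.63, 0.31, 0.78 and 0.52, so 7 of 8 arrays were above 0. The pair means were 0.43, 0.22, 0.47 and 0.65, all above 0. The mean of 0.44 ± 0.17 was the highest of any member, a 1.36-fold higher level with a 95% confidence interval of 1.19 to 1.56. Limma's p was 0.0025 with an adjusted p of 0.506.

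The other probes of EIF5 did not follow it. The probe of middle brightness had pair values of -0.10, 0.11, 0.02 and 0.34 (0.09 ± 0.19), and the dimmest -0.12, -0.36, -0.32 and 0.12 (-0.17 ± 0.22). Within a pair, 2 probes of EIF5 differed on average by 0.41, more than the SD of a probe over the pairs (0.19). Averaged over its 3 probes, EIF5 came to 0.12.

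EIF5B, the GTPase that joins the large subunit, had pair values of -0.27 and -0.41 on the first slide, and on the second slide 0.23 and 0.26. The mean over all 4 pairs was -0.05 ± 0.34. EIF6, which keeps free large subunits from joining, was below 0 with both probes, at -0.07 ± 0.18 for the brighter and -0.13 ± 0.09 for the other. The pairs of that dimmer probe were -0.0044, -0.14, -0.17 and -0.21, with a limma p of 0.038 (adjusted 0.679).

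**Figure D2:**
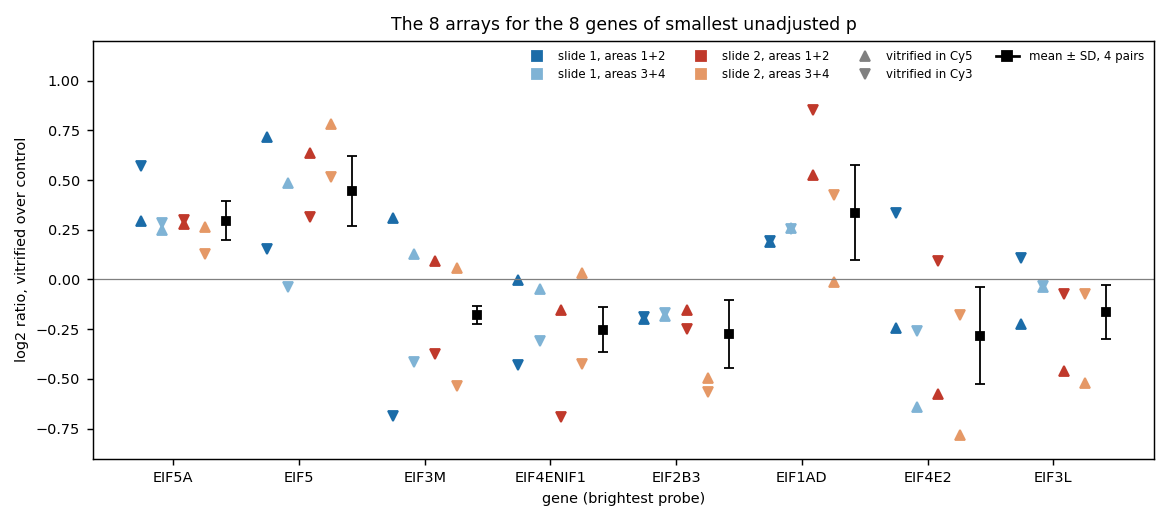
Log2 ratio of vitrified over control on each of the 8 arrays for the members with the smallest limma p, with the dye that carried the vitrified pool shown by the marker. EIF5A lies above 0 on all 8 arrays and EIF2B3 below 0 on all 8, whereas EIF3M is above 0 on the 4 arrays with vitrified RNA in Cy5 and below 0 on the 4 others.

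EIF5A is, despite its name, mainly a factor of elongation and termination, and carries the modified residue hypusine. Its brighter probe (EMBV3_34742) had 0.29, 0.57, 0.25 and 0.28 on the first slide, and on the second slide 0.28, 0.30, 0.27 and 0.13. Every array was above 0 and 6 of the 8 lay between 0.25 and 0.30. The mean over pairs was 0.30 ± 0.10, or 1.23-fold (95% confidence interval 1.12 to 1.34), with a limma p of 0.0022 and an adjusted p of 0.503. The other probe of EIF5A was dim and read 0.01 ± 0.11, and EIF5A2, its relative, also dim, read -0.07 ± 0.17.

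Both measured subunits of eIF2 had pairs on either side of 0. EIF2S1 encodes the alpha subunit, on which the stress kinases act, and its pairs were -0.13, 0.17, -0.01 and 0.03. The mean of 0.01 ± 0.12 had a 95% confidence interval of 0.911 to 1.12 on the fold scale. EIF2S2, the beta subunit, had a brighter probe at -0.57 in pair 1 and between -0.14 and 0.03 in the others (-0.18 ± 0.27), and a dimmer one at -0.09 ± 0.16. EIF2A, an alternative carrier of the initiator tRNA that is no subunit of eIF2, was at 0.09 ± 0.20.

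The exchange factor eIF2B recharges eIF2 with GTP and has 5 subunits, all represented. EIF2B3, the gamma subunit (probe EMBV3_21377), read -0.20, -0.19, -0.19 and -0.17 on the first slide, and on the second slide -0.15, -0.25, -0.50 and -0.57. All 8 arrays were below 0, and pair 4 at -0.53 stood apart from the others at -0.20 to -0.18. The mean of -0.27 ± 0.17 corresponds to 0.827-fold (95% confidence interval 0.722 to 0.947), with a limma p of 0.016 and an adjusted p of 0.576.

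The other eIF2B subunits lay on both sides of 0, and differences between subunits were not tested. EIF2B1, the alpha subunit, was at -0.12 ± 0.12 with 7 of 8 arrays below 0 and its lowest value in pair 4 (-0.28), as for EIF2B3. EIF2B4, the delta subunit, was at 0.12 ± 0.17 with 6 of 8 arrays above 0. The 3 probes of EIF2B2, the beta subunit, lay between -0.05 and 0.03. EIF2B5, the catalytic epsilon subunit, had a brightest probe at 0.47, -0.41, -0.02 and -0.38 over the pairs (-0.08 ± 0.41), with the other probes at -0.10 and 0.04. Of the 9 eIF2B probes 3 were above 0, and their median was -0.05.

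Of the kinases that phosphorylate eIF2, 3 were among the members. EIF2AK2 (PKR), which responds to double-stranded RNA, had pair values of 0.19, 0.82, 0.05 and 0.20. All 4 were above 0 but pair 2 was far higher than the rest, and the mean of 0.32 ± 0.34 had a limma p of 0.078 (adjusted 0.774). The probe was dim: its vitrified signal exceeded background on 6 arrays and its control signal on 5. EIF2AK1 (HRI), which responds to lack of haem, was also dim at 0.08 ± 0.33, and EIF2AK4 (GCN2), which responds to lack of amino acids, was at -0.01 ± 0.25 with a bright probe.

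The eIF3 complex, the largest of the factors, scaffolds the small subunit and the messenger RNA. It had 18 probes of 12 genes, 6 above 0, with a median of -0.03. EIF3A, its largest subunit, had no probe with that symbol.

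EIF3M encodes a subunit of the complex. Its probe (EMBV3_10473) read 0.31, -0.69, 0.13 and -0.42 on the first slide, and on the second slide 0.09, -0.38, 0.06 and -0.54. The sign thus followed the dye on every array, and the pair means, in which a dye difference cancels, were -0.19, -0.14, -0.14 and -0.24. Their SD of 0.05 around the mean of -0.18 was small beside the median SD of 0.19 over the members. The level was 0.884-fold (95% confidence interval 0.830 to 0.942) with a limma p of 0.0044 and an adjusted p of 0.506.

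EIF3L, another subunit, was below 0 in all pairs, at -0.06 and -0.03 on the first slide, and on the second slide -0.27 and -0.30 (-0.16 ± 0.14). Its limma p was 0.048 with an adjusted p of 0.704. EIF3D, the subunit that can itself bind the cap, had pairs of 0.04, -0.04, -0.42 and -0.14 (-0.14 ± 0.20). EIF3B, a core subunit, had 0.34 and -0.03 on the first slide, and on the second slide -0.37 and -0.36.

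EIF3G binds RNA, and its brighter probe showed the strongest dye difference of any member. It read -0.85, 1.22, -0.53 and 0.93 on the first slide, and on the second slide -0.79, 0.99, -0.94 and 0.86, yet the pair means were only 0.18, 0.20, 0.10 and -0.04 (0.11 ± 0.11). The other EIF3G probe was at 0.04 ± 0.23. A dye effect over 0.5 on the log2 scale was present in 2 members, this probe and the dimmest EIF4E2 probe, or 2.86% against 2.52% of all tested probes.

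EIF3F had 4 probes, all below 0 on average (-0.23 to -0.04), and pair 4 was the lowest for each, from -0.93 to -0.25. EIF3I had pair values of 0.31, 0.09, -0.04 and -0.28 with its brighter probe and of 0.37, 0.08, 0.01 and -0.47 with the other. Both had a mean near 0 (0.02 and -0.0017). EIF3E, a further subunit, was at -0.07 ± 0.24. The remaining subunits, EIF3C, EIF3H, EIF3J and EIF3K, had means between -0.03 and 0.10.

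In the cap-binding complex eIF4F, EIF4E binds the cap itself. Its 2 brighter probes were at 0.09 ± 0.21 and 0.10 ± 0.23 and the dimmer at -0.14 ± 0.31. The helicases EIF4A1 and EIF4A2, which unwind the leader, were at 0.13 ± 0.19 and 0.06 ± 0.37. EIF4A2 split by slide, with -0.20 and -0.32 on the first and 0.41 and 0.35 on the second. EIF4B, which assists the helicase, was at 0.14 ± 0.20. EIF4A3, a helicase of the exon junction complex, was at -0.13 ± 0.21. EIF4E3, a cap-binding relative of EIF4E, had a dim probe at 0.96 in pair 1 and between -0.17 and 0.25 in the others (0.22 ± 0.53).

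The scaffold EIF4G1 had no probe with that symbol. EIF4G2 (DAP5), a related protein that does not bind EIF4E, was at 0.01 ± 0.08 with its bright probe. Its dim probe was at -0.02 ± 0.16.

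EIF4E2 (4EHP) is a cap-binding protein that competes with EIF4E and represses translation. The brightest of its 3 probes (EMBV3_00330) read -0.24, 0.33, -0.64 and -0.26 on the first slide, and on the second slide -0.58, 0.09, -0.78 and -0.18, so 6 of 8 arrays were below 0. Its pairs were 0.04, -0.45, -0.24 and -0.48, of which pair 1 was not below 0. The mean of -0.28 ± 0.24 was 0.822-fold (95% confidence interval 0.684 to 0.989), with a limma p of 0.042 and an adjusted p of 0.685. The other probes followed the same course over the pairs, with 0.11, -0.34, -0.07 and -0.40 for one and 0.19, -0.29, -0.01 and -0.41 for the other. Within a pair the probes differed on average by 0.10, less than the SD of a probe over pairs (0.25).

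**Figure D3:**
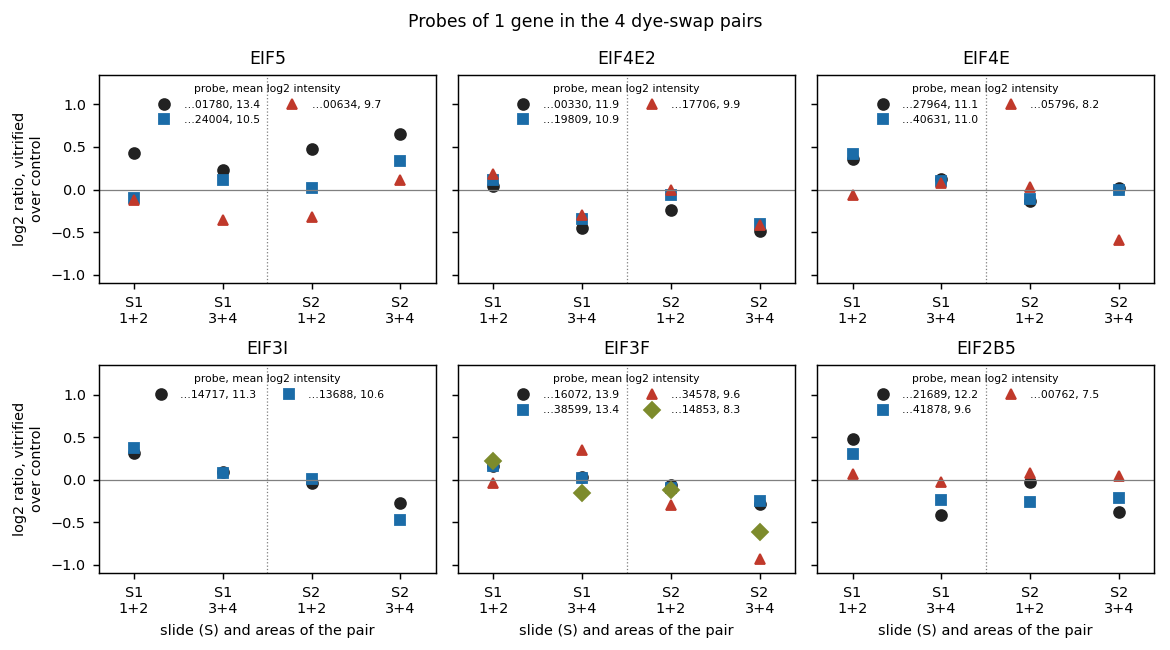
Log2 ratio of vitrified over control in the 4 dye-swap pairs for some genes with more than 1 tested probe, with a marker shape per probe. Shown are EIF5, EIF4E2, EIF4E, EIF3I, EIF3F and EIF2B5. The 3 EIF4E2 probes and both EIF3I probes lie close together, while the brightest EIF5 probe (mean 0.44) lies above the other EIF5 probes (0.09 and -0.17).

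Among the proteins that bind EIF4E, EIF4ENIF1 (4E-T) takes it into the nucleus and into particles of repressed messenger RNA. Its probe (EMBV3_09747) read -0.0044, -0.43, -0.05 and -0.31 on the first slide, and on the second slide -0.16, -0.69, 0.03 and -0.42, with 7 of 8 below 0. The pairs were -0.22, -0.18, -0.42 and -0.19, all below 0, with pair 3 apart from the others. The mean of -0.25 ± 0.11 was 0.839-fold (95% confidence interval 0.760 to 0.926), with a limma p of 0.0065 and an adjusted p of 0.518.

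EIF4EBP1 and EIF4EBP2, the binding proteins that mTOR controls, were dim. The probes of EIF4EBP1 were at -0.04 ± 0.08 and -0.01 ± 0.06, and that of EIF4EBP2 at 0.03 ± 0.07. Since the offset narrows the ratios of dim probes, those small spreads are not a bound on a change of these transcripts. The same holds for the Argonaute probes EIF2C2 and EIF2C3, at -0.03 and 0.04, and for EIF4E1B, EIF4G3 and EIF4H, between -0.04 and 0.04.

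Of the 16 symbols with more than 1 tested probe, 8 had means of the same sign on all their probes and 8 had both signs. Neighbouring arrays of opposite dye were compared across the 70 members, which are not independent replicates. Once the dye effect of each probe was removed, the correlation within a pair was 0.866, 0.737, 0.826 and 0.869 for pairs 1 to 4. As measured, with the dye effect left in, it was between -0.08 and 0.33. The dye effect was estimated from these same arrays, and its removal by itself raises the agreement of opposite dyes.

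The family medians over pairs all lay between -0.10 (eIF6, 2 probes) and 0.08 (eIF2 kinases, 3 probes). The eIF4F family with its partners had a median of 0.0040 with 9 of 17 probes above 0. In single pairs the medians went further, for example from -0.17 to 0.27 for eIF1. The median of eIF3 was 0.02 on the first slide and -0.16 on the second, and that of eIF5 with eIF5B was -0.12 and 0.21.

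The difference between slides was tested for each probe. No probe passed at a limma adjusted p under 0.05. At an unadjusted limma p under 0.05, 4 of 70 members (5.71%) differed, against 4.01% of all tested probes. They were EIF4A2 and EIF5B, lower on the first slide, and EIF3B and EIF3L, higher there, with unadjusted limma p of 0.0024, 0.0035, 0.029 and 0.032 in that order and limma adjusted p near 1. Whether the slides carry separate sets of embryos cannot be told from the labels, so pool and slide cannot be told apart.

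The labels also number the arrays from 1 to 4, and each number stands on both slides in the same dye. With arrays averaged by these numbers, 16 of 70 members (22.9%) had an unadjusted limma p under 0.05, against 13.8% of all tested probes. None was called after adjustment, the smallest adjusted p being that of EIF5 at 0.119. Numbers 1 and 2 both draw on pairs 1 and 3, and numbers 3 and 4 both draw on pairs 2 and 4. If neighbouring areas share their pools, the 4 averages are not independent. The p-values by number, and the 22.9% and 13.8%, would then overstate the evidence. With the pairs as a random block over the 8 arrays, limma called 29 of the tested probes (0.0831%) and none of the members, of which EIF5 had the smallest limma adjusted p at 0.0706. At an unadjusted limma p under 0.05 that fit found 10 members (14.3%), against 9.49% of all tested probes.

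A list of 50 other translation genes was set beside the initiation factors: elongation and release factors, recycling factors, ribosomal proteins and regulators of eIF2 and mTOR signalling. On the array were 45, and 62 probes of 44 genes were tested. None was called at a limma adjusted p under 0.05. At an unadjusted limma p under 0.05, 5 of the 62 probes were higher and 1 was lower, beside 3.16% and 3.91% of all tested probes. A background of like brightness was not worked out for this list. The list's median was 0.0036 with 32 above 0 and 30 below.

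EEF2, the translocase of elongation, had the smallest p of them. Its pairs were 0.30, 0.27, 0.33 and 0.20, all 8 arrays were above 0, and the mean was 0.27 ± 0.05 with a limma p of 0.00088 and an adjusted p of 0.503. Its other probe was at 0.04 ± 0.42. EEF1D, part of the exchange factor for the tRNA carrier of elongation, was at 0.29 ± 0.09, and ABCE1, which splits ribosomes after termination, at 0.31 ± 0.12, each with all 8 arrays above 0. Other elongation genes of the list did not share this: EEF1A1 was at -0.00071 and -0.08 with its probes, EEF1G at 0.0068 and TUFM at -0.14. IMPACT, an inhibitor of GCN2, had probes that went apart, at -0.40, 0.35, -0.14 and -0.02.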

How the data were processed

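The deposited scanner files hold, per the file headers, uncorrected and unnormalized intensity of spot and local background in both channels. For the scanner's software the sources used here give no name. The authors also deposited a table of 1 value per probe and array on a log2 scale. Its columns correlated with the vitrified over control ratio at r of 0.748 to 0.849, and their medians ran from -0.010 to 0.010. Its direction and scale were read from that comparison, while the authors' normalization remains unknown.

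Mean intensities were corrected with normexp (offset 50) and normalized by loess within each array in limma 3.58.1 under R 4.3.3, with control spots at weight 0 and 2 to 50 ignored spots per array left out, none on a member. The background limit of each channel was the mean of its 153 negative control spots plus 2 SD, on the log2 scale. Probes past this limit on at least 4 arrays for vitrified or for control RNA were tested, 34912 in all. A dim probe has only a bound on its level. Ratios were turned to vitrified over control and averaged within dye-swap pairs, and lmFit and eBayes tested the 4 means against 0. The pairs come from the series' description of a dye swap. With the dye effect removed, neighbouring arrays correlated at a mean r of 0.825 over the members, and arrays with the same labelled number at 0.044. Removing a dye effect estimated from these same arrays itself raises the agreement of opposite dyes. Neighbours also share a slide, which arrays of the same number do not, and other pairings were not compared. The comparison therefore cannot show which arrays carry the same pools. Calculations were tested on simulated data.

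Genes named by rule were the 14 with the smallest p, by their brightest probe, with the other probes beside it, and a set of core factors whatever their values, 29 in all. The other 18 of the 47 tested symbols are also named, and which of them are given with pair values was chosen after the values were seen. The platform annotation can be old: 43 of 48 symbols stand in the RefSeq table of assembly NIAB-ARS_B.indTharparkar_mat_pri_1.0. The members, lists and pairs were chosen with earlier results of these data known. Alternatives tried were 18, covering background, normalization, filter, replicate structure, probe averaging, slides and each pair left out.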

Additional observations from a re-analysis of the deposited data

Results flagged for a closer look

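Among 42 sets of 4 pairs or of arrays checked for a value that stood apart from the rest by Dixon's test, 4 were found, where chance gives about 1 in 20, or 2.1 here. For EIF4ENIF1, pair 3 (-0.422) was lower than the others, and for EIF1AD pair 3 (0.689) was higher. For EIF2B3, pair 4 (-0.53) was lower than the others. The share of probes above background on area 1 of the second slide (28.0%) was low against the other arrays, and that array belongs to pair 3. EIF1AD read 0.53 on that area and 0.85 on area 2, the other array of pair 3. EIF4ENIF1 read -0.16 and -0.69 in the same order. A link between the low share and these values was not tested. Over the remaining pairs, the mean log2 ratio was -0.196 for EIF4ENIF1 and 0.218 for EIF1AD without pair 3, and -0.189 for EIF2B3 without pair 4.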

How the results depend on the processing

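The number of members called at a limma adjusted p under 0.05 was 0 under all 18 alternatives, and so was the number of all probes called, except that 29 probes were called with dye-swap pair as a random block. The members' median log2 ratio was 0.0109 on the first slide alone and -0.0565 on the second slide alone. Without each pair in turn, the number called stayed at 0 and the members' median ran from -0.0229 to 0.0049, above 0 without pair 4 alone. Members with an unadjusted limma p under 0.05 ranged from 5 (deposited value table) to 16 (labelled replicate numbers, whose averages may not be independent). The ratios of EIF5, EIF5A, EIF3M, EIF4ENIF1, EIF2B3, EIF1AD and EIF4E2 kept their sign under all 18. So did those of EIF3L, EIF2B1, EIF3G, EIF2S2, EIF2B4 and EIF4A1. Settings that alter only the fit leave a ratio as it is. A gene with all pairs on one side cannot change sign when pairs or a slide are left out. A kept sign is therefore partly fixed in advance. EIF5 ranged from 0.122 (mean over its probes) to 0.561 (second slide alone) and EIF5A from 0.155 (mean over its probes) to 0.35 (deposited table). Of the 29 named genes, 5 changed sign with the deposited table, 5 on the first slide alone and 5 without pair 4, and 2 to 4 under 6 other settings. The cause was not tested. The number of arrays limits the precision, and 19 of the 70 members are dim, with ratios that understate a change.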
